A study of Mus musculus with 6 samples.

Results

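The Wnt genes described here are the ligands, frizzled receptors, Lrp co-receptors and secreted Sfrp and Dkk antagonists. Dvl transducers, Axin and beta-catenin genes and Tcf and Lef factors are also among them. The family was chosen with earlier results of these data known, and its members were matched by gene symbol. They comprised 49 genes with 98 probe sets, out of 18193 genes that the array annotation pairs with probe sets and 45037 probe sets tested. There were 19 Wnt ligand genes, 11 genes with a frizzled symbol, of which 10 encode receptors and the other is the antisense gene Fzd10os, 2 Lrp co-receptor genes, 4 Sfrp genes, 4 Dkk genes, 3 Dvl genes, 3 genes of Axin and beta-catenin, and 3 Tcf and Lef genes (Tcf7l1, Tcf7l2 and Lef1). Tcf7 itself was not analysed here. Values are those of a gene's brightest probe set, that with the highest mean log2 intensity, where no other is stated. Log2 fold changes are Meis1cko minus control throughout, and all adjusted p-values are Benjamini-Hochberg values over all probe sets.

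Total RNA was taken from dorsal root ganglia at cervical, thoracic and lumbar levels (DRGs). These hold the cell bodies of somatosensory neurons. They came from 3 Meis1cko mice and 3 control mice aged P60, with 1 Affymetrix mouse genome array for each mouse. Meis1cko mice carry a floxed Meis1 allele, Meis1F, from which the Cre of a Nav1.8-Cre transgene removes an exon that encodes part of the homeodomain. The allele was made in J1 embryonic stem cells and crossed with C57BL/6 mice. The transgene acts in most nociceptive neurons from late embryonic stages. Other neurons, glia, vessels and connective tissue of the same ganglia keep the exon and also give RNA. In tissue sections at P60, the paper saw Meis1 RNA only in a small group of large neurons and could not detect it in nociceptors. The labels call the mutants Meis1 mutant and the others control, and neither the labels nor the methods give the alleles of the control mice on the arrays, or the sexes of the 6 mice. In whole ganglia, fewer cells of a type and less RNA per cell cannot be told apart.

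Wnt proteins are secreted, lipid-modified ligands that bind frizzled receptors, in the canonical branch together with Lrp5 or Lrp6. The signal passes through Dvl proteins and stops a complex built on Axin from marking beta-catenin for destruction, and beta-catenin then acts with Tcf and Lef factors on target genes, among them Axin2 and Lef1. Other branches control planar cell polarity and calcium release, and in the peripheral nervous system Wnt signals are known for their part in the neural crest, from which the DRG arises, and in axon growth.

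The sensory neuron markers of the tissue were bright. All 6 of a fixed list (Prph, Tubb3, Isl1, Avil, Pou4f1 and Snap25) lay at or above the 87.8th percentile of all probe sets, and their summed intensity was 43754 to 46853 in control and 43806 to 49518 in Meis1cko DRGs. On its brightest probe set Meis1 had intensities of 109.7, 144 and 90.2 in the control mice and 66, 72.1 and 64.2 in the Meis1cko mice. Every Meis1cko mouse lay below every control mouse there. The log2 fold change was -0.74 (unadjusted p = 0.00434 in limma). Meis1 itself did not pass after adjustment, in limma or with the replicates paired by number (adjusted p = 0.16 in the paired limma fit). Its next brightest probe set was higher in every Meis1cko mouse, at 0.13, and its dimmest overlapped, at -0.16. Averaged over its probe sets the log2 fold change was -0.26. Array medians were 62.5 to 65.5. The replicate 3 array of each genotype stood apart from the other 4 arrays. The Actb control probe sets at the 3′ end exceeded those at the 5′ end by log2 differences of 0.423 and 0.440 on the replicate 3 arrays of control and Meis1cko DRGs and 1.23 to 1.66 on the others. The skeletal muscle markers also varied between mice, with a summed intensity of 269 to 3029 in control and 431 to 946 in Meis1cko DRGs.

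None of the 49 Wnt genes was higher or lower in Meis1cko than in control DRGs at an adjusted p under 0.05 in limma, where 0.0055% of all genes passed by their brightest probe set, and none of the 98 probe sets passed, where 0.0155% of all probe sets did. Their log2 fold changes ran from -0.46 for the antagonist gene Sfrp1 to 0.45 for the nuclear factor gene Lef1, with 25 above 0 and 24 below. The median was 0.01, beside -0.01 over all 18193 genes. Sfrp1 was the only Wnt gene with an unadjusted p under 0.05 (2.04% of the 49, where 2.56% of all genes passed), and none also had the fold change over 1.5 that the study's methods asked for, which 0.781% of all genes passed. With the replicates paired by number, 3 Wnt genes had an unadjusted p under 0.05 (6.12%, where 7.11% of all genes passed), and still none passed after adjustment over all probe sets (smallest adjusted p = 0.332 in limma).

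Of the 98 probe sets, 3 passed an unadjusted p of 0.05 in limma (3.06%, where 2.32% of all probe sets passed), those being the brightest of Sfrp1 and dimmer ones of Dkk1 and Fzd4, and 6 had groups that did not overlap (6.12%, where 6.64% of all probe sets did). The remaining ones of the 6 were the brightest of Wnt6 and Wnt3 and the dimmer one of Wnt7b. The count of Wnt genes with an unadjusted p under 0.05 varied with the mice and the test. It was 3 without Meis1cko replicate 1 (where 3.73% of all genes passed), 3 without Meis1cko replicate 3 (4.16% of all genes), 6 without both replicate 3 arrays (4.41% of all genes) and 3 by the methods' t-test (3.31% of all genes). It was 2 with an offset of 16 (3.25% of all genes), 2 without Meis1cko replicate 2 (1.81%) and 2 without control replicate 3 (2.83%). Sfrp1 was among them each time. With the probe sets of a gene averaged, Lef1 was the 1 Wnt gene that passed (2.76% of all genes).

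The 95% interval of the log2 fold change shows how large a difference each gene could still carry. For 31 of the 49 Wnt genes (63.3%) it lay within a 1.5-fold change in either direction, where 73% of all genes had such an interval. The narrower ones included that of Ctnnb1, which encodes beta-catenin, from -0.24 to 0.26. The interval of Lef1 ran from -0.10 to 1.0 and that of the receptor gene Fzd2 from -1.03 to 0.69, so that both intervals reached a 2-fold change.

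**Figure D1:**
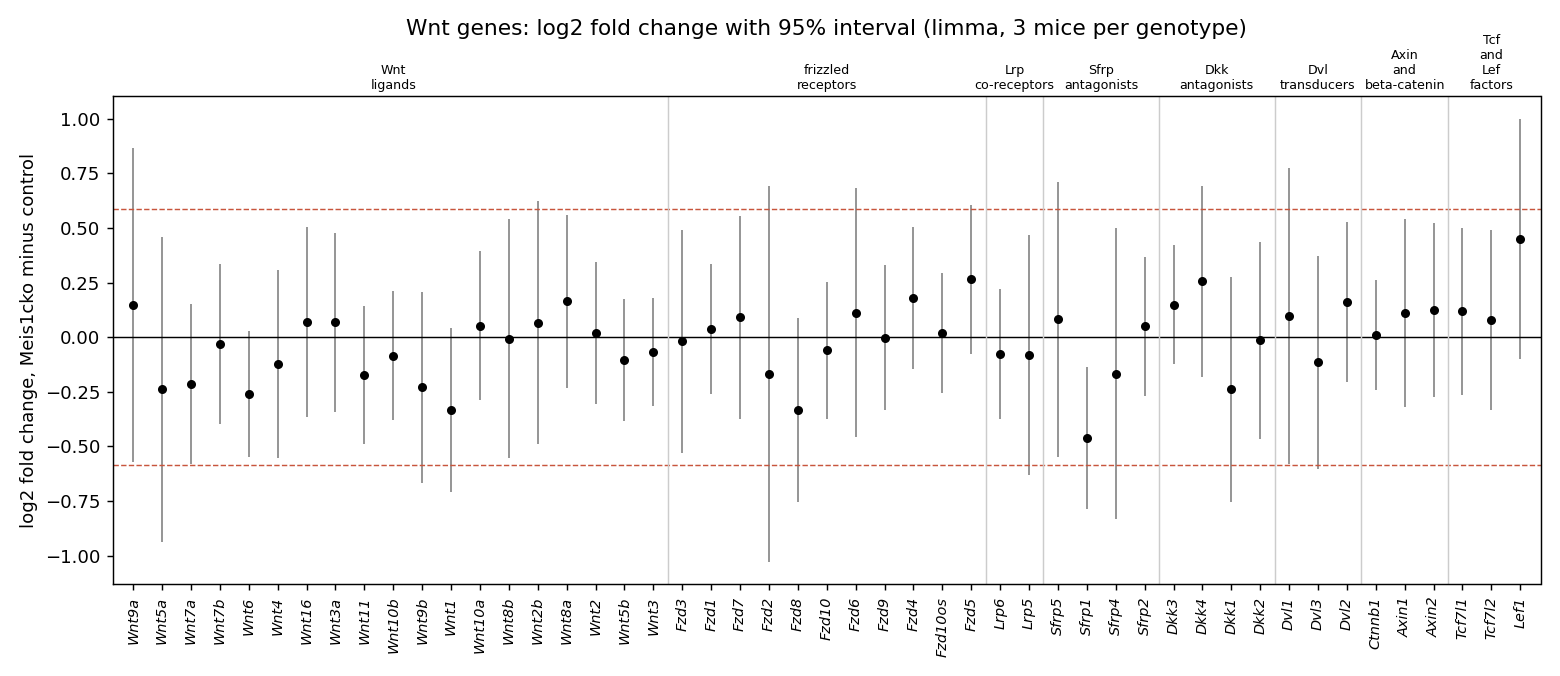
Log2 fold change (Meis1cko minus control) of the brightest probe set of each Wnt gene, with the 95% interval from limma as bars (3 mice per genotype), ordered by family and brightness. Red dashed lines mark a 1.5-fold change; Sfrp1 (-0.46) is the gene whose interval does not cross 0, and the intervals of Fzd2 and Lef1 are among the wide ones.

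Of the 49 genes, 28 had a mean intensity at or above the median of all probe sets (65.9), which is 57.1% of them beside 66.8% of all genes. The share was 7 of 19 for Wnt ligands, 8 of 11 for frizzled genes, 1 of 2 for Lrp, 3 of 4 for Sfrp, 1 of 4 for Dkk, 2 of 3 for Dvl, and 3 of 3 both for Axin and beta-catenin and for the Tcf and Lef factors. Wnt3, Lrp5, Sfrp2, Dkk1 and Dkk2 lay below the 25th percentile of all probe sets (22.3). Probe sets bind their targets with different strength, so the intensities place a gene among all probe sets but do not order the genes by transcript number. With the log2 values of all probe sets of a gene averaged, 22 genes lay at or above the median.

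**Figure D2:**
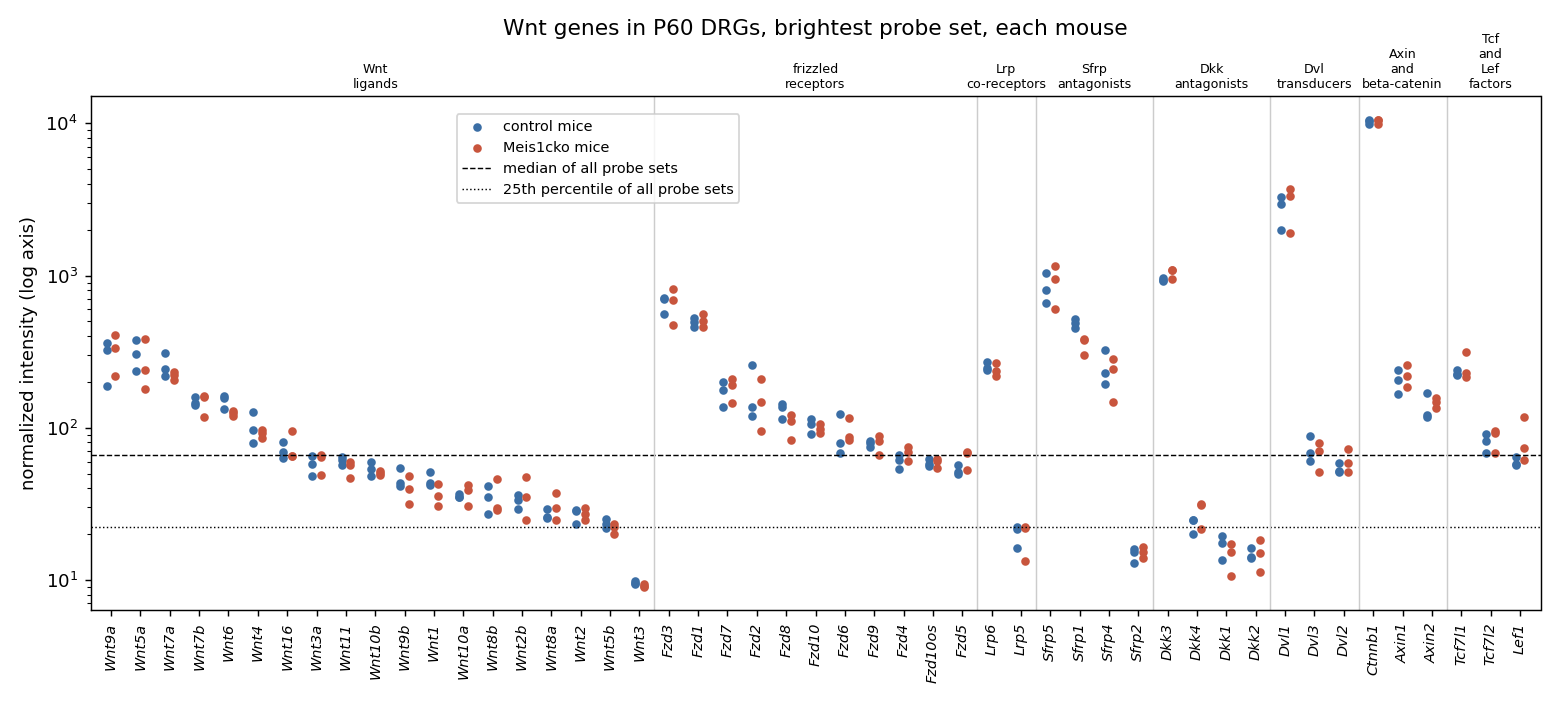
Normalized intensity (log axis) of the brightest probe set of each of the 49 Wnt genes in each control (blue) and Meis1cko (red) mouse at P60, ordered by family and brightness, with the median (dashed) and 25th percentile (dotted) of all probe sets. Ctnnb1 and Dvl1 are the brightest, most Wnt ligands lie below the median, and the points of both genotypes overlap for all genes but Sfrp1, Wnt6 and Wnt3.

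Wnt6 and Wnt3 were the ligand genes on which every Meis1cko mouse lay below every control mouse. Wnt4 is the Wnt gene that the study names, among the genes it lists as differentially expressed on these arrays. Among the 49 genes, 3 (Sfrp1, Wnt6 and Wnt3) were lower without overlap (6.12%, where 3.82% of all genes were) and 0 were higher (3.12% of all genes). Such a separation has an exact permutation p of 0.1, two-sided, the smallest that 3 mice against 3 allow. The 250 bases before the transcript start of Wnt6, Wnt4 and Wnt3 are shown to give their promoters beside the values, in RefSeq sequence of GRCm38.p6. They are chr1:74771642-74771891, chr4:137277385-137277634 and chr11:103773925-103774174, all on the plus strand. Capitals mark the letters TGACAG, the core that Meis proteins are known to bind.
Wnt6: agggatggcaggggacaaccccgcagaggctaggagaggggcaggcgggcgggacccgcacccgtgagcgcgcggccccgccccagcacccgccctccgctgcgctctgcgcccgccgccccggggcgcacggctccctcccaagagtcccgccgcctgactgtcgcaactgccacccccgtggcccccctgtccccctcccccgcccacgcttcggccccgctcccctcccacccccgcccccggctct
Wnt4: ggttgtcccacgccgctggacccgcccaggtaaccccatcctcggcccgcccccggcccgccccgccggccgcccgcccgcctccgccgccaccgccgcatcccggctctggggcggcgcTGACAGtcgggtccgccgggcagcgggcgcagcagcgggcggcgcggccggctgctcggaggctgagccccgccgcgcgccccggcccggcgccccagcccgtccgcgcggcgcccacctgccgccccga
Wnt3: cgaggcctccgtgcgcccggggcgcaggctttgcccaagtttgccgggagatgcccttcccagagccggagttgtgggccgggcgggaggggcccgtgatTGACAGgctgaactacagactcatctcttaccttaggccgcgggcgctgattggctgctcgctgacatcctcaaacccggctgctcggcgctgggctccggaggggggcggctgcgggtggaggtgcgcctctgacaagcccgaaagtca

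The letters TGACAG, on either strand, were found 130 bases before the start of Wnt4 and 150 bases before that of Wnt3, and not in the window of Wnt6. RefSeq windows were at hand for 33 of the 49 Wnt genes, 41 windows in all, and 5 of these (12.2%) held the letters, where 15.9% of the 32851 windows of all genes did. Lef1, Tcf7l1 and Wnt1 were the other genes among the 5. Lef1 has several windows, and only that at chr3:131156044-131156293 held the letters. Sfrp1 had no window at hand and was not searched. The letters CTTTGAA or CTTTGAT, which Tcf and Lef factors are known to bind, were in 3 of the 41 windows (7.32%, beside 7.48% of all), those of Dkk1, Wnt11 and Wnt5b. A match is a description of the letters and says nothing of binding in these ganglia.

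Wnt6 had intensities of 161, 156 and 133 in the control mice and 125, 120.3 and 129 in the Meis1cko mice. The log2 fold change was -0.26 (SE 0.12, unadjusted p = 0.0705 and adjusted p = 1 in limma), and its dimmer probe set, on which the groups overlapped, had -0.32. The gap between the groups was small beside the spread of the control mice, 150 ± 14.9 (SD, n = 3 mice). Wnt3 was at 9.48, 9.83 and 9.44 in control and 9.02, 9.34 and 9.10 in Meis1cko DRGs, under each array's own 25th percentile, which was 20.8 or more, so that its fold change is not exact. Wnt4 had 127, 97.1 and 79.2 in control and 86.0, 91.8 and 96.4 in Meis1cko DRGs. The Meis1cko mice of Wnt4 lay inside the range of the control mice. Its log2 fold change was -0.12 (SE 0.18, unadjusted p = 0.527 in limma), with -0.07 on the dimmer probe set (unadjusted p = 0.606 in limma). Neither probe set met the fold change and p thresholds of the study's methods. The study's listing of Wnt4 as differentially expressed was therefore not reproduced from these values.

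Wnt9a, Wnt5a and Wnt7a were the brightest probe sets among the ligands. Wnt5a, which encodes a ligand of the non-canonical branches, had intensities of 307, 377 and 235 in control and 239.7, 385 and 179 in Meis1cko DRGs. Wnt9a had 324, 358 and 189 in control and 336, 408 and 218 in Meis1cko DRGs. The replicate 3 mouse was the lowest and the replicate 2 mouse the highest of each genotype for both genes, and the genotypes overlapped. Wnt7a, which encodes a ligand known for its part in synapse formation, had 309.6, 219 and 243 in control and 222, 205 and 232 in Meis1cko DRGs. The log2 fold changes of these genes were 0.15 (SE 0.31) for Wnt9a, -0.24 (SE 0.30) for Wnt5a and -0.21 (SE 0.16) for Wnt7a.

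Of the 19 ligand genes, 7 had a log2 fold change above 0 and 12 below, with a median of -0.07 and a range from -0.33 for Wnt1, a ligand of the canonical branch, to 0.16 for Wnt8a. Of these, 14 had an interval within a 1.5-fold change. Several ligand genes lie next to each other in the genome, and the 4 neighbouring pairs had log2 fold changes of -0.26 and 0.05 for Wnt6 and Wnt10a, 0.07 and 0.15 for Wnt3a and Wnt9a, -0.23 and -0.07 for Wnt9b and Wnt3, and -0.08 and -0.33 for Wnt10b and Wnt1. None of these differences passed the adjusted threshold of limma.

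Frizzled receptor genes did not separate the genotypes on their brightest probe sets, with log2 fold changes from -0.33 for Fzd8 to 0.26 for Fzd5 and a median of 0.02 over the 10 receptor genes, 5 values above 0 and 5 below. Fzd3, whose receptor is known for its part in axon guidance, had intensities of 714, 706 and 556 in control and 819, 692 and 477 in Meis1cko DRGs. Fzd1 had 495, 523 and 463 in control and 506, 559 and 459 in Meis1cko DRGs. For Fzd7 they were 199, 177 and 136 in control and 208, 192 and 145 in Meis1cko DRGs. In all of these the genotypes overlapped, and the log2 fold changes were -0.02 (SE 0.22), 0.04 (SE 0.13) and 0.09 (SE 0.20). Fzd8, with means of 131 ± 15.7 and 105 ± 20.1 (SD, n = 3 mice), had -0.33 on its brightest and -0.37 on its other probe set, and neither passed. Fzd4, the receptor gene of vessel growth, was higher in every Meis1cko mouse on its second brightest probe set, with 45.7, 54.1 and 46.0 in control and 56.7, 59.99 and 60.5 in Meis1cko DRGs. That probe set had a log2 fold change of 0.29 (unadjusted p = 0.0493, adjusted p = 1 in limma), while the brightest one of Fzd4, with 0.18, overlapped. Fzd10os, the antisense gene of Fzd10, had 0.02, and Fzd10 had -0.06.

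The co-receptor gene Lrp6 had intensities of 271, 240.3 and 248 in control and 265, 238 and 218 in Meis1cko DRGs. Its log2 fold change was -0.08 (SE 0.13), less than the spread between mice. Lrp5 was dim, at 16.2, 21.5 and 22.3 in control and 13.3, 22.2 and 22.1 in Meis1cko DRGs, with -0.08 (SE 0.23). For both genes the genotypes overlapped.

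Sfrp1, which encodes a secreted protein that binds Wnt ligands, separated the genotypes on its brightest probe set, with all Meis1cko mice below all control mice. Its intensities were 516, 485 and 456 in control and 379, 382 and 301 in Meis1cko DRGs, with means of 485 ± 30.1 and 354 ± 45.6 (SD, n = 3 mice). The groups did not overlap, and the log2 fold change was -0.46 (SE 0.14, unadjusted p = 0.0117 and adjusted p = 1 in limma, or adjusted p = 0.332 with the replicates paired). The other 4 probe sets of Sfrp1 gave -0.00, -0.11, -0.06 and -0.56, and the genotypes overlapped on each. Averaged over all 5 probe sets the log2 fold change was -0.24 (unadjusted p = 0.312 in limma).

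The other Sfrp genes were not separated by genotype. Sfrp5 had intensities of 808, 663 and 1044 in control and 945, 606 and 1158 in Meis1cko DRGs, a log2 fold change of 0.08 (SE 0.27). Sfrp4 had 326, 229 and 193 in control and 242, 148 and 284 in Meis1cko DRGs, with -0.17 (SE 0.29). Both spanned a wide range within each genotype. Sfrp2 was dim, with means of 14.7 and 15.2.

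Among the Dkk genes, which encode secreted proteins of which several block the Lrp co-receptors, Dkk3 was the bright one. It had intensities of 916, 966 and 940 in control and 955, 1087 and 1093 in Meis1cko DRGs. Its log2 fold change was 0.15 (SE 0.12), and the mice of both genotypes overlapped between 955 and 966. Dkk4 had 20.2, 24.9 and 24.9 in control and 21.5, 31.3 and 31.6 in Meis1cko DRGs, with 0.26 (SE 0.19) and an unadjusted p of 0.0493 in the paired limma fit. For Dkk1, a target and blocker of the canonical branch, the values were 19.5, 17.5 and 13.5 in control and 10.6, 15.3 and 17.2 in Meis1cko DRGs. On its dimmer probe set Dkk1 had 10.5, 9.65 and 9.86 in control and 8.30, 7.45 and 8.53 in Meis1cko DRGs, lower without overlap (log2 fold change -0.31, unadjusted p = 0.0320 in limma). As for Wnt3, these values lay under the 25th percentile of every array, so that neither the fold change nor its p is exact.

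**Figure D3:**
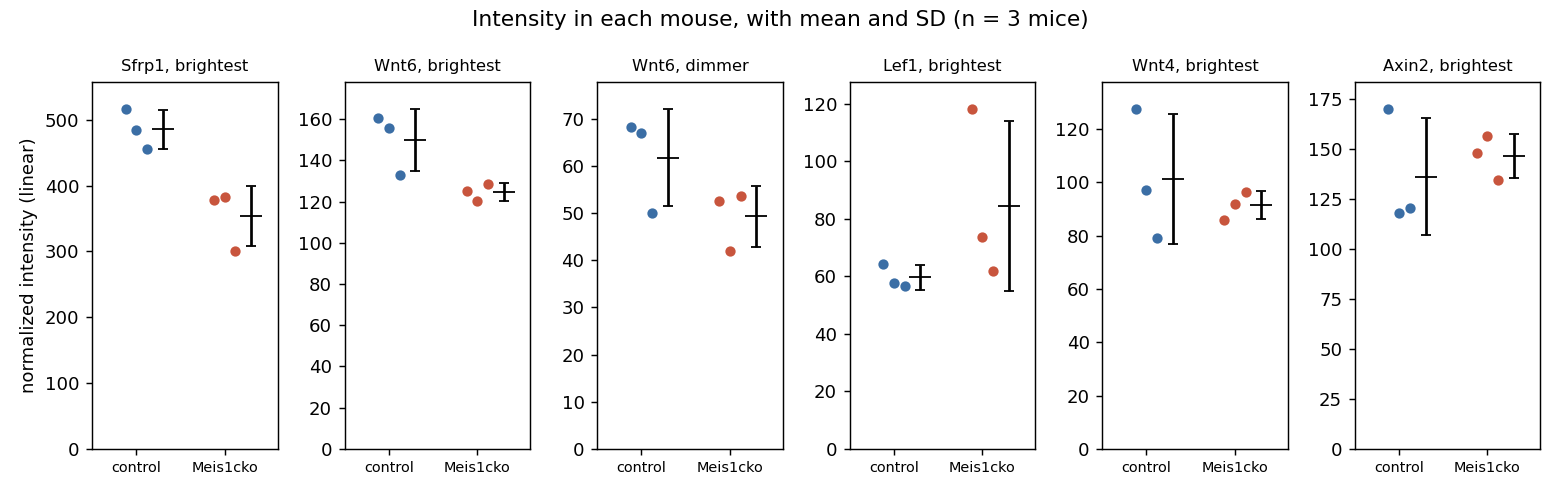
Normalized intensity (linear axis from 0) of 6 probe sets in each control (blue) and Meis1cko (red) mouse, with group mean and SD beside the points (n = 3 mice). The Meis1cko mice lie below all control mice for Sfrp1 (301 to 382 against 456 to 516) and the brightest probe set of Wnt6, the groups overlap for the dimmer Wnt6 probe set, Wnt4 and Axin2, and for Lef1 1 Meis1cko mouse at 118 lies far above the others.

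The cytoplasmic part of the pathway held the brightest genes of the family. Ctnnb1 had intensities of 10394, 10524 and 9918 in control and 10560, 10487 and 9976 in Meis1cko DRGs, at the 99.7th percentile of all probe sets. Its means of 10279 ± 319 and 10341 ± 318 (SD, n = 3 mice) differed by far less than the spread between mice, the log2 fold change being 0.01 (SE 0.11). Dvl1, the transducer gene, had 3266, 2950 and 2005 in control and 3723, 3321 and 1916 in Meis1cko DRGs, with 0.10 (SE 0.29). The replicate 3 mouse of each genotype was the lowest for Dvl1. Dvl3 had 60.8, 68.6 and 87.8 in control and 51.4, 70.6 and 79.4 in Meis1cko DRGs. Dvl2 had 58.3, 51.2 and 52.1 in control and 72.1, 59.1 and 50.8 in Meis1cko DRGs. The log2 fold changes of Dvl3 and Dvl2, -0.12 (SE 0.21) and 0.16 (SE 0.16), did not exceed the spread between mice.

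Axin1, the scaffold of the destruction complex, had intensities of 239.6, 208 and 167 in control and 258, 218 and 186 in Meis1cko DRGs, a log2 fold change of 0.11 (SE 0.18). Its relative Axin2, a feedback target of beta-catenin that is often read as a measure of the canonical branch, had 169.9, 118 and 121 in control and 148, 157 and 135 in Meis1cko DRGs. The genotypes overlapped on both, and the log2 fold change of Axin2 was 0.12 (SE 0.17) with an interval from -0.28 to 0.52.

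Lef1, a nuclear factor gene that is also a target of the canonical branch, had the largest positive log2 fold change of the family. Its intensities were 64.5, 57.8 and 56.6 in control and 118, 73.7 and 61.8 in Meis1cko DRGs, so that the groups overlapped by the lowest Meis1cko and the highest control mouse. The log2 fold change was 0.45 (SE 0.24, unadjusted p = 0.0955, adjusted p = 1 in limma, with 0.0208 and 0.609 in the paired fit), and without Meis1cko replicate 1, the mouse at 118, it was 0.18. Without Meis1cko replicate 3 it was 0.65 with an unadjusted p of 0.0191 in limma. It was then the 1 Wnt gene past both thresholds of the methods, which 1.48% of all genes passed, and it was so again without both replicate 3 arrays, where 1.32% of all genes passed. The other probe set of Lef1 lay below the 25th percentile, with 0.12. Tcf7l1 had 224, 226 and 239 in control and 216, 228 and 312 in Meis1cko DRGs, and Tcf7l2 had 90.6, 82.0 and 68.5 in control and 95, 92.2 and 68.5 in Meis1cko DRGs. Both of these factor genes overlapped between genotypes and differed by 0.12 (SE 0.16) and 0.08 (SE 0.18) on the log2 scale.

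Probe sets of the same Wnt gene often differed. Of the 32 genes with more than 1 probe set, 14 had log2 fold changes of both signs, and Fzd3 had the most probe sets, 6, with values from -0.32 to 0.05. On 4 of the 98 probe sets (4.08%, where 1.93% of all probe sets did), the replicate 3 array lay more than 2-fold above the mean of the other arrays in both genotypes. These were dimmer probe sets of Ctnnb1, Sfrp1, Sfrp5 and Dkk3. The dimmest probe set of Ctnnb1 had 109.8, 129 and 1256 in control and 119, 123 and 1197 in Meis1cko DRGs. That of Sfrp5 had 148, 147 and 513 in control and 141, 131 and 605 in Meis1cko DRGs. The dimmest of Sfrp1 by mean log2 value had 54.3, 76.9 and 376 in control and 55.9, 47.1 and 187 in Meis1cko DRGs. On these probe sets the replicate number separated the mice and the genotypes overlapped, while the brightest probe sets of the same genes had no such gap. That of Sfrp1 had a log2 fold change of -0.56, with an unadjusted p of 0.0213 in the paired limma fit (adjusted p = 0.611). In that fit 6.99% of all probe sets had an unadjusted p under 0.05. The arrays with the high values are those with the low 3′ to 5′ difference of Actb, and the part of that difference was not tested.

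**Figure D4:**
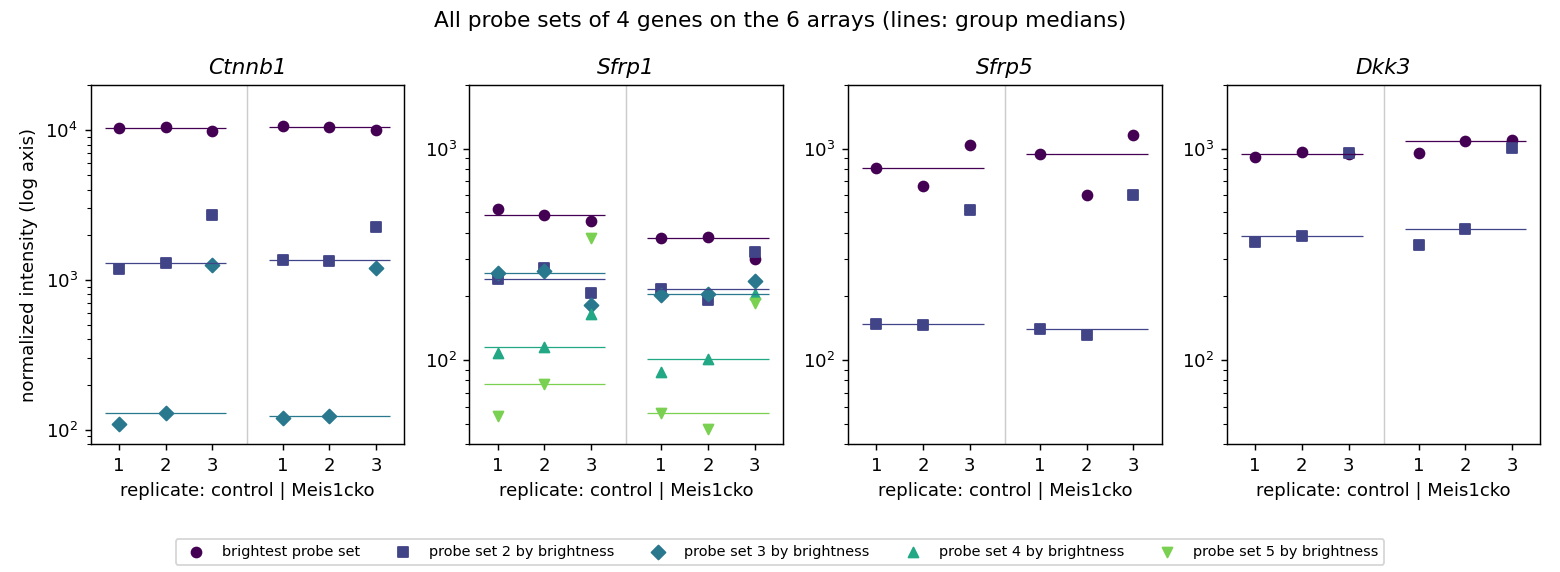
Normalized intensity (log axis) of every probe set of Ctnnb1, Sfrp1, Sfrp5 and Dkk3 by array, control left and Meis1cko right in each panel, with group medians as lines. On the dimmest probe set of Ctnnb1 the replicate 3 arrays lie at 1256 and 1197 and the other 4 arrays between 109.8 and 129, while the brightest one stays between 9918 and 10560.

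Other genes of the pathway, from lists of 100 genes of which 98 were measured, did not pass the adjusted threshold either: 0 were higher and 0 lower in limma, and 1 was higher and 2 were lower at an unadjusted p under 0.05 (3.06%, where 2.56% of all genes passed). With the replicates paired 0 passed after adjustment. Their median log2 fold change was -0.03, with 42 above 0 and 56 below. By list the medians were 0.06 for Wnt secretion, -0.06 for alternative receptors, -0.03 for the R-spondin axis, -0.09 for other secreted antagonists, -0.01 for the destruction complex and its kinases, -0.05 for nuclear cofactors, -0.00 for the polarity and calcium branch and -0.06 for textbook target genes.

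Sostdc1, a secreted antagonist of BMP and Wnt signals, had intensities of 865, 1029 and 917 in control and 718, 516 and 795 in Meis1cko DRGs. It differed by -0.49 on the log2 scale (SE 0.18; unadjusted p = 0.0298, adjusted p = 1 in limma). Frzb, a relative of the Sfrp genes, had 932, 959 and 1106 in control and 876, 871 and 877 in Meis1cko DRGs, with -0.19 (SE 0.12). Of the 98 genes, 4 were lower without overlap (4.08%, where 3.82% of all genes were), namely Sostdc1, Frzb, Plcb1 and Tnfrsf19, and 4 were higher (3.12% of all genes), namely Sox17, Bcl9, Daam2 and Myc. Sox17, whose product can bind beta-catenin and marks vessels, had 95.1, 88.3 and 88.1 in control and 216, 202 and 149 in Meis1cko DRGs, 1.04 higher on the log2 scale (SE 0.16; adjusted p = 0.434 in limma and 0.0539 in the paired fit). It stands in the paper's list of changed genes, so its inclusion is not independent of these arrays. Plcb1, a phospholipase gene of the calcium branch, had a log2 fold change of -0.30 (unadjusted p = 0.0451, adjusted p = 1 in limma).

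Genes with the next smallest p of their lists did not pass, and their log2 fold changes are given as values only. They included the corepressor gene Tle1 at 0.52, the Wnt deacylase gene Notum at 0.34, the target gene Myc at 0.28, the polarity genes Daam2 at 0.30 and Celsr1 at -0.37, the R-spondin gene Rspo1 at -0.26, the receptor gene Ror1 at -0.26 and the scaffold gene Amer2 at 0.22. The Wnt carrier gene Wls and the acyltransferase gene Porcn had 0.16 and -0.04. Notum, Myc and the Axin2 and Lef1 genes above are all taken as targets of beta-catenin. Axin2 and Lef1 were counted among the Wnt genes and not in the target list. Of the 20 measured genes of that list 7 lay above 0 and 13 below, with a median of -0.06.

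**Figure D5:**
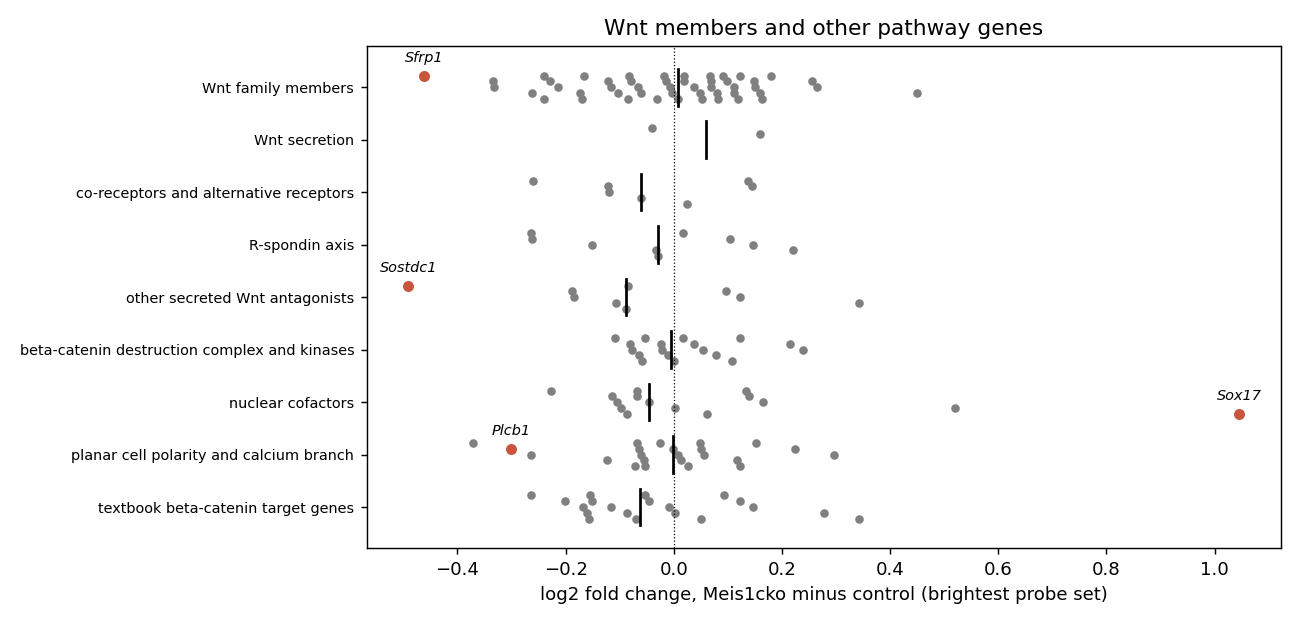
Log2 fold change (Meis1cko minus control, brightest probe set) of the 49 Wnt genes and of each list of other pathway genes, 1 point a gene, with the list's median as a bar and red points for an unadjusted p under 0.05 in limma. Sfrp1, Sostdc1, Plcb1 and Sox17 are the red points, and the medians lie between -0.09 and 0.06.

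Connective tissue markers lay on the same side of 0 as Sfrp1, Sostdc1 and Frzb. All 6 of the list (Dcn, Col1a1, Col1a2, Col3a1, Pdgfra and Lum) had a log2 fold change below 0, with a median of -0.56, 0 passed the adjusted threshold of limma, 4 had an unadjusted p under 0.05, and Lum passed in the paired fit (adjusted p = 0.00717). Their summed intensity was 10569 to 17256 in control and 7590.2 to 9616 in Meis1cko DRGs, without overlap. Macrophage markers had a median of -0.40, with 5 of 6 below 0 and summed intensities of 881 to 1467 in control and 589.9 to 1053 in Meis1cko DRGs. The cartilage markers summed to 763 to 784 in control and 442 to 489 in Meis1cko DRGs, without overlap. Of these 5 genes, however, 3 lay above 0 and 2 below, with a median of 0.02. Only 1 of them, at -1.07, had an unadjusted p under 0.05 in limma (20%, where 2.56% of all genes passed). In the paired limma fit 1 gene of this list passed the adjusted threshold (adjusted p = 0.0252). The myelinating Schwann cell markers summed to 24266 to 26639 in control and 22821 to 24237 in Meis1cko DRGs, apart by a narrow gap. All 4 measured lay below 0, with a median of -0.09, and 1, at -1.52, had an unadjusted p under 0.05 in limma (25%, where 2.56% of all genes passed). Here too 1 gene of the list passed the adjusted threshold in the paired limma fit (adjusted p = 0.0252). The part of these lists in the values of Sfrp1, Sostdc1 and Frzb was not tested. The mural markers Acta2 and Tagln were higher without overlap, at 0.76 and 0.47 (2 of 6, where 3.12% of all genes were). Of the 6 mural markers 5 lay above 0, with a summed intensity of 4266 to 6158 in control and 4718 to 8160.4 in Meis1cko DRGs. Endothelial markers summed to 833 to 1015 in control and 811 to 1127 in Meis1cko DRGs, and their part and that of the mural markers in the values of Sox17, Fzd4 and Lef1 was not tested.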

How the data were processed

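RNA from the DRGs of 3 control and 3 Meis1cko mice was hybridized to Affymetrix mouse genome arrays, 1 array per mouse in 1 colour. The authors read the images with the GeneChip command console, then used Genespring, and the deposited values are their normalized intensity values on a linear scale. How probes were summarised and normalized is not given in the sources used here, so the treatment of dim probe sets before deposit is unknown, and the number of arrays limits the precision. The methods name an RNeasy kit and the labels Trizol for the RNA.

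Intensities were taken to log2 with values under 1 set to 1. Of 45101 probe sets, 64 controls were not tested. The annotation of the array gave symbols, with 34945 probe sets listed for 1 gene, and all 49 Wnt genes matched the RefSeq table of GRCm38.p6 by gene ID. Genotypes were compared with limma 3.58.1 (lmFit and eBayes) in R 4.3.3 and Benjamini-Hochberg adjustment over 45037 probe sets at 0.05; all adjusted p-values are from that fit or the paired one. Other steps used Python 3.11.15. The fit was tested on simulated data with independent noise on each array, which held no shared shift of the replicate 3 arrays.

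The Wnt genes and all lists were chosen with earlier results of these data known. The genes given with values are the up to 3 brightest of each family, those with an unadjusted p under 0.05 or groups that do not overlap, Wnt4 and Meis1, and of each list of other pathway genes up to 3 with the smallest p. Fzd2, Fzd4, Fzd5, Fzd8, Wnt1, Wnt7b, Wnt8a and Bcl9 and neighbouring ligand genes were named after their values were seen.

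The labels number the mice of each genotype from 1 to 3 without saying why. Mice that share a number departed from the means of their groups alike (correlations of 0.424, 0.535 and 0.766), so the numbers were taken to pair the arrays, mostly through replicate 3 (between different numbers, correlations were -0.601 to -0.517 where it was involved and 0.319 and 0.337 between replicates 1 and 2). Other settings tried were an eBayes trend, the methods' t-test, quantile normalization, filters on dim probe sets (under the median or under the 25th percentile), an offset of 16, the replicate block, means over probe sets, each array left out, and both replicate 3 arrays left out.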

Additional observations from a re-analysis of the deposited data

How the results depend on the processing

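No Wnt gene and no other pathway gene passed the adjusted threshold under any alternative run. The number of Wnt genes with an unadjusted p under 0.05, 1 in the comparison as reported, was 2 with an offset of 16 (3.25% of all genes passed), 3 in the methods' t-test (Sfrp1, Wnt3 and Wnt6; 3.31% of all genes passed; 0 after Benjamini-Hochberg), 3 with the replicate block (Sfrp1, Lef1 and Dkk4), 6 without both replicate 3 arrays (Sfrp1, Wnt6, Dkk1, Fzd5, Fzd8 and Lef1, 12.2% where 4.41% of all genes passed), and 1 to 3 with 1 array left out, with 3 without Meis1cko replicate 1, 2 without Meis1cko replicate 2 (1.81% of all genes), 3 without Meis1cko replicate 3 and 2 without control replicate 3 (2.83% of all genes). The number past the thresholds of the methods, 0 as reported, was 0 to 1 with 1 array left out (Lef1 without Meis1cko replicate 3, where 1.48% of all genes passed) and 1 without both replicate 3 arrays (also Lef1, where 1.32% of all genes passed). The cause was not tested. Averaging the probe sets of each gene removed Sfrp1 and brought in Lef1 (unadjusted p = 0.0486 in limma). The replicate block changed no adjusted call among the Wnt and other pathway genes, while over all genes 18 passed with it and 1 without. Of the 26 Wnt genes named by the rule, 6 were run in all 15 alternatives and kept their sign in each, and a further 4, dim genes that the filters left out of some, kept it in the 13 or 14 run. The 6 included Sfrp1 (-0.52 to -0.24), Wnt6 (-0.37 to -0.21) and Lef1 (0.18 to 0.65). The median log2 fold change of the family stayed between -0.03 and 0.04, and the number of genes at or above the median intensity between 22 and 29.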
